A study of Mus musculus with 18 samples.

Results

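The 9 genes described here encode receptors, or receptor subunits, for cytokines that act on blood cell precursors: Kit, Flt3, Csf1r, Csf2ra, Csf2rb, Csf2rb2, Csf3r, Il3ra and Il6ra. They were taken by name, from a list drawn up with earlier results of these data known, as the genes of the count table whose Ensembl identifiers map to those symbols, 9 of 54347 genes in all. RNA was profiled in leukemia stem cells of the bone marrow, isolated by flow cytometry from C57BL/6JRj mice, with 7000 cells per mouse, at 30 days after leukemia was induced. Of 9 mice, 5 carried the genotype labelled Prx1-Cxcl12-mutant and 4 the genotype labelled Prx1-Cxcl12-wild type, called control here, and leukemia had been induced in both groups. Prx1 is a mesenchymal gene whose promoter is used to target stromal cells of the limb skeleton, so it acts in cells of the niche and not in the blood cells profiled. Whether the mutation reached every stromal cell, and whether the leukemia cells were transplanted, is not given in the sources used here, nor are the leukemia driver, the sort markers, any selection on Kit protein, the sex and age of the mice, and the harvest days. The comparison of mutant with control mice asks how the receptors of these cells differ when stromal cells of the marrow carry a mutation of Cxcl12, the gene of a chemokine that retains blood cells in the marrow.

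Kit, Flt3 and Csf1r encode receptor tyrosine kinases, each a single chain that dimerises on its ligand (stem cell factor, FLT3 ligand, and CSF1 or IL-34). Csf2ra and Il3ra encode ligand-binding alpha chains for GM-CSF and IL-3, which signal only together with a beta chain. The common beta chain, which both can use, is encoded by Csf2rb. The mouse has a further beta chain, encoded by Csf2rb2, which serves IL-3 alone. Csf3r encodes the G-CSF receptor, and Il6ra the IL-6-binding chain that pairs with the signalling chain gp130, encoded by Il6st. The beta chains, gp130 and Csf3r carry no kinase of their own and work through Janus kinases and STAT transcription factors. In the marrow Kit and Flt3 mark early progenitors, Csf1r the monocyte lineage and Csf3r the neutrophil lineage.

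The beta chain genes are near-identical copies, so their sequences bear on how well their counts can be separated. They lie on chromosome 15 of GRCm38, transcribed away from each other with 20030 bases between them. Their coding sequences were identical at 2503 of 2628 aligned bases (95.2%), with the longest identical run 242 bases long. The last 500 transcript bases, near which a 3′-end method reads, were 83.1% identical over the aligned bases, with a longest identical run of 36. The 90 bases below are the last of the Csf2rb2 coding sequence and their counterpart in Csf2rb, which codes 54 bases more. They show the 3′ end of the coding sequence and not the 3′ end of the transcripts. The genes run on past them, to 78353847 (Csf2rb) and 78282507 (Csf2rb2), and whether any reads covered them was not examined. Capitals mark the 6 bases at which the copies differ. Both are from GENCODE on GRCm38, Csf2rb at chr15:78349039-78349128 on the plus strand and Csf2rb2 at chr15:78284320-78284409 on the minus strand.
Csf2rb: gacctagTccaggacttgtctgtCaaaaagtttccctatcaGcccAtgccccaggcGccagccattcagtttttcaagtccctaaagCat
Csf2rb2: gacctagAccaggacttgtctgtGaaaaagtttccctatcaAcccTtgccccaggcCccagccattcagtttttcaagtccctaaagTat
The estimated counts of Csf2rb and of Csf2rb2 were not whole numbers in any of the 18 libraries (tolerance 1e-06), as happens when a read is shared out among transcripts, so each value of this pair is uncertain to the extent that reads were split between the copies.

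Kit and Csf3r are the members whose mutant and control values did not overlap, and their promoters are shown for that reason. RefSeq on GRCm38.p6 gave a promoter for 7 of the 9 members, all but Csf1r and Csf2rb. Each window holds the 250 bases before the RefSeq start and was searched on both strands for GATAA (the core bound by GATA factors), GAGGAA (the core bound by PU.1) and GCAAT (a C/EBP half-site), which mark regulators of these genes. Capitals mark the matches, none of which overlap. The Kit window is chr5:75574737-75574986 and that of Csf3r chr4:126024409-126024658, both on the plus strand.
Kit: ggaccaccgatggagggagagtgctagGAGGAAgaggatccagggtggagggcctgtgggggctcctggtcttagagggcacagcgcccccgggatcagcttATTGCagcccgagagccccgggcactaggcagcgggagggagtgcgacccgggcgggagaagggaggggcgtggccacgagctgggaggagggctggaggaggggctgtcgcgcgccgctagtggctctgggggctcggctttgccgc
Csf3r: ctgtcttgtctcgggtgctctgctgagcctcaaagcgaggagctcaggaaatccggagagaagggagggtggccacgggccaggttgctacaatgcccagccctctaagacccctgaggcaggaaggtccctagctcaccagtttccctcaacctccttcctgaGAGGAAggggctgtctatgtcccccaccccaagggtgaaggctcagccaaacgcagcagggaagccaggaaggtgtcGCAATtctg
The Kit window held GAGGAA 223 bases and GCAAT 148 bases before the RefSeq start, and the Csf3r window held them 86 and 9 bases before it. Neither window held GATAA. GENCODE starts Kit at 75574916 and Csf3r at 126024550, which lie inside these windows. By the GENCODE starts both Kit matches are upstream, and both Csf3r matches are within the annotated gene. Among the other members, Csf2rb2 and Il6ra held all 3 motifs, Csf2ra only GAGGAA, Il3ra only GCAAT and Flt3 none. Of 32851 promoter windows of the same length, 22.6% held GATAA, 23.3% GAGGAA and 23.1% GCAAT, so a match is common and describes these letters only.

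Libraries were made by MARS-seq, a method that reads the 3′ ends of polyadenylated transcripts, with 2 technical libraries per mouse whose estimated counts were added, so that the mouse is the unit throughout. Totals ran from 3825500 to 15071673 counts per library and from 11766467 to 25485899 per mouse, 15160572 ± 2307737 (SD, n = 4) in controls and 20734088 ± 4170598 (SD, n = 5) in mutants. The cells carried myeloid progenitor markers, of which 12 of 13 passed the low-count filter, with a summed level of 8272 to 9111 CPM (counts scaled to each library's size) in controls and 7173 to 11821 in mutants. The list includes Prtn3, Elane and Mpo, which encode granule proteins of early granulocyte-monocyte precursors, and all 3 were tested. Most of the sum came from Prtn3 (4423 CPM in controls and 4640 in mutants) and Elane (2156 and 2556). Cd34 averaged 30.1 and 25.2 CPM. The marker that did not pass the filter was Ly6a, at 0.49 and 0.51 CPM. Cd3g, Cd4 and Ncr1 of T and NK cells, Tpsb2 and Mcpt4 of mast cells and Pdgfra of stroma had no count in any mouse. B lineage markers summed to 55.5 to 78.3 CPM in controls and 50.6 to 68.8 in mutants, T and NK markers to 89.6 to 143.9 and 101.7 to 194.4, and stromal markers to 46.0 to 59.2 and 38.3 to 52.4. These sums rest mainly on 1 gene each, Cd79b (61.8 CPM in controls and 53.5 in mutants), Nkg7 (126.2 and 135.8) and Pecam1 (43.6 and 37.4). Levels below are CPM with TMM factors, which are not divided by transcript length, so each gene is compared with itself between groups and never with another gene.

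All 9 receptor genes passed the low-count filter and none was called between mutant and control mice at an adjusted p under 0.05 in edgeR's quasi-likelihood test, in which 9 of 12973 tested genes (0.0694%) were called. Those 9 calls were all lost when control mouse 3 or 4 or mutant mouse 7, 8, 10 or 12 was left out, which holds for the marker genes said below to have fallen. Kit and Csf3r had an unadjusted p under that value, both lower in mutants, beside 9.85% of all tested genes in either direction and 4.89% of them lower in mutants. They were also the 2 members whose groups did not overlap, a state that 4% of tested genes reached and 2.13% reached with mutants lower. Of the 9 log2 fold changes, 5 were below 0, beside 48.3% of all tested genes. Their median was -0.05, beside 0.01 for all tested genes. DESeq2 called 0.647% of its tested genes and also no receptor. In these bulk samples fewer cells of a type and less RNA per cell cannot be told apart, which holds for every difference below.

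**Figure D1:**
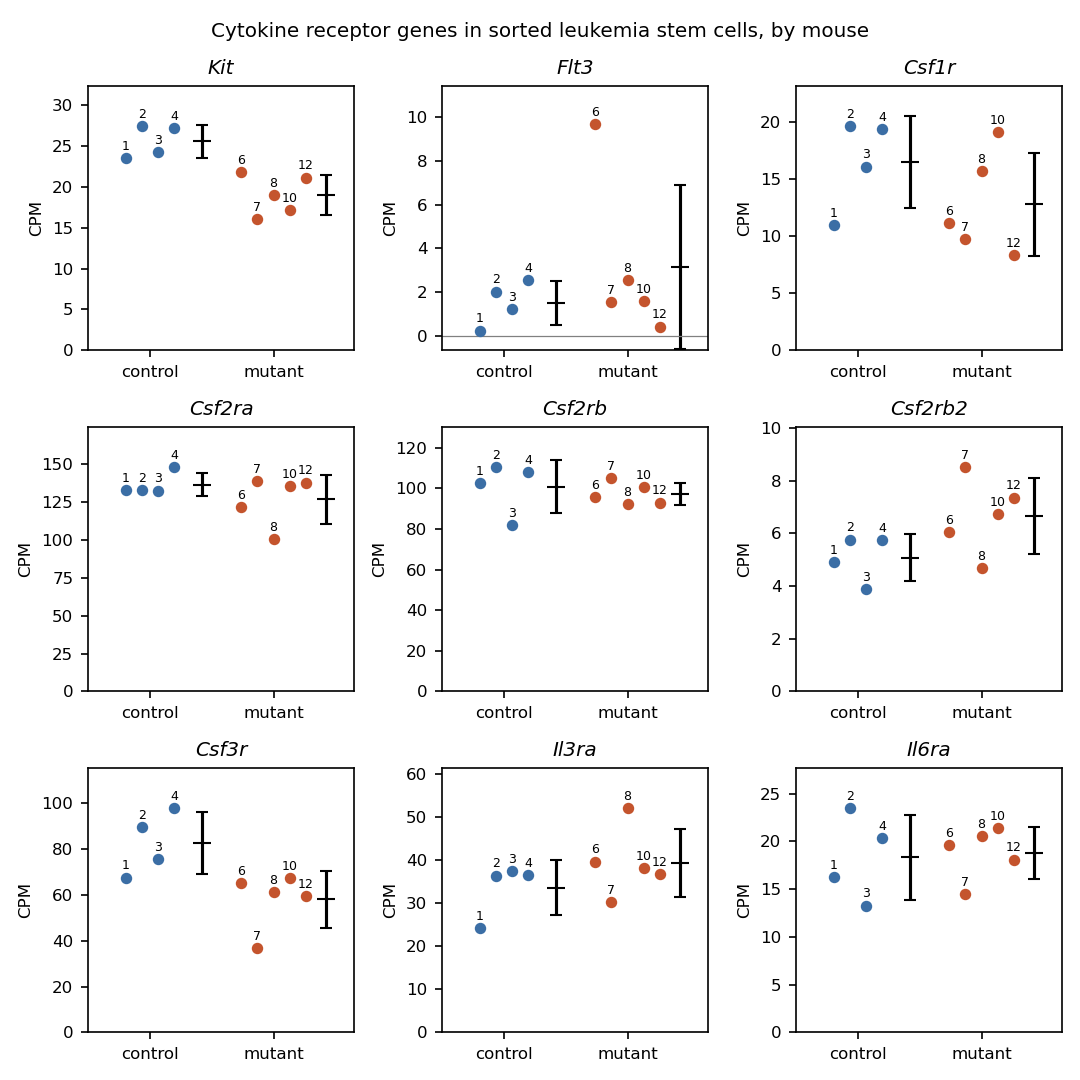
Level of each receptor gene in CPM in each mouse, with blue dots for control and orange dots for mutant mice, mouse numbers above the dots, and the mean with SD (black) beside each group. Kit and Csf3r are the panels in which every mutant dot lies below every control dot. In Flt3 mutant mouse 6 stands alone at 9.69 CPM, and the SD bar of its group runs below the grey line at 0.

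**Figure D2:**
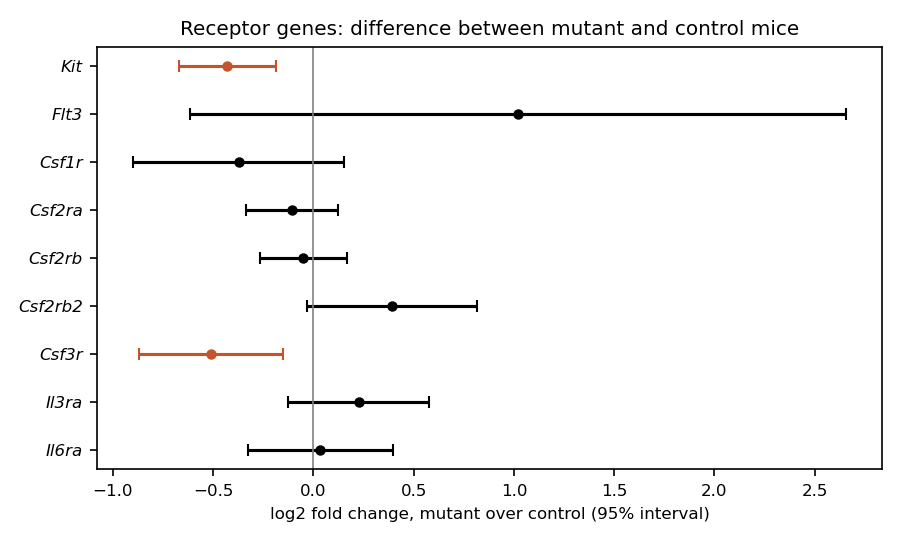
Log2 fold change of each receptor gene, mutant over control, from edgeR, with its 95% interval and a grey line at 0. Orange marks the genes whose groups did not overlap, Kit and Csf3r, and the interval of Flt3, -0.62 to 2.66, is the widest.

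Kit, the receptor for stem cell factor, was lower in every mutant mouse than in any control. Control mice 1 to 4 had 23.5, 27.4, 24.2 and 27.1 CPM, from 297, 461, 356 and 458 counts. Mutant mice 6, 7, 8, 10 and 12 had 21.8, 16.1, 19.0, 17.2 and 21.1 CPM, from 395, 400, 454, 316 and 356 counts. The lowest control, mouse 1, thus stood just above the highest mutant, mouse 6. Group means were 25.6 ± 1.99 CPM (SD, n = 4) in controls and 19.0 ± 2.45 (SD, n = 5) in mutants, a log2 fold change of -0.43 (SE 0.11, 95% interval -0.67 to -0.19) with an adjusted p of 0.254 in edgeR. Kit stood at rank 110 by p among the tested genes. DESeq2 gave it an adjusted p of 0.0826, and limma-voom fitted to all 18 libraries, with a random effect for the mouse, gave 0.0508, in a fit that called 62 genes. The difference was -0.58 in the first technical libraries and -0.32 in the second, where the libraries of a mouse differed from each other by a median of 0.22 on the log2 scale.

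Depth and the markers of other cells that carry Kit were examined beside it. Mutant mouse 7, with the lowest Kit level, was also the most deeply sequenced, and with the log2 total count as a covariate the log2 fold change of Kit was -0.36 (edgeR adjusted p = 0.982, in a fit that called no gene). Leaving out that mouse gave -0.37. With every mouse thinned to the smallest total, a setting chosen after the data had been seen, the log2 fold change of Kit was -0.49 (edgeR adjusted p = 0.218). Mast cells and their precursors carry Kit. The 10 mast cell and basophil markers summed to 72.2 to 85.6 CPM in controls and 61.6 to 87.4 in mutants, with 4 tested, 2 below 0 and 2 above. Among them Cpa3, a mast cell protease, ranged from 1.90 to 9.40 CPM in controls and from 0.80 to 2.09 in mutants (log2 fold change -1.54, edgeR adjusted p = 0.259), while Hdc and Mcpt8, of mast cells and basophils, stood at 0.29 and 0.43. Erythroid markers summed to 16.8 to 62.3 CPM in controls and 27.7 to 69.0 in mutants, and of the 8 tested 7 were above 0 and 1 below. The carbonic anhydrase genes Car1 and Car2 were the 2 of these 8 whose groups did not overlap, beside 4% of all tested genes. Both were close to the floor in controls, at 0 to 0.83 CPM for Car1 and 0.24 to 1.54 for Car2. In the control mice 3 counts make 0.18 to 0.24 CPM. Car1 averaged 0.24 CPM in controls and 2.40 in mutants (edgeR adjusted p = 0.176), and Car2 0.75 and 3.27 (edgeR adjusted p = 0.116). Megakaryocyte markers summed to 30.2 to 41.1 CPM in controls and 21.6 to 33.2 in mutants, with 3 tested, 1 above 0 and 2 below. Among them Itga2b, an integrin chain of megakaryocytes and early progenitors, fell from 2.48 to 0.67 CPM (edgeR adjusted p = 0.0427). The part of these cells in the Kit values was not tested.

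Flt3, the receptor for FLT3 ligand, varied more among mice of a group than between groups. Controls had 0.24, 2.02, 1.23 and 2.55 CPM, where the first value rests on 3 counts, the limit that a count of 0 allows. Mutants had 9.69, 1.53, 2.55, 1.58 and 0.42 CPM, from 176, 38, 61, 29 and 7 counts. One mouse, mutant 6, stood apart, with 11.6 CPM in its first library and 8.36 in its second, so the high level was present in both. Across all mice the log2 fold change was 1.02 (SE 0.75, interval -0.62 to 2.66), with an adjusted p of 0.680 in edgeR, and without mutant mouse 6 it was 0.0011. The other mutants, at 0.42 to 2.55 CPM, lay within the control range.

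Csf1r, the CSF1 receptor of the monocyte lineage, ranged from 10.98 to 19.6 CPM in controls and from 8.30 to 19.1 in mutants. Group means were 16.5 ± 4.02 CPM (SD, n = 4) and 12.8 ± 4.48 (SD, n = 5), a log2 fold change of -0.37 (SE 0.24, interval -0.90 to 0.15) with an adjusted p of 0.634 in edgeR. With the log2 total count as a covariate it was -0.70 (adjusted p = 0.982), and with thinned totals -0.43. Mutant mice 6, 7 and 12 were low and mice 8 and 10 lay among the controls, as control mouse 1 lay among the low mutants. The 15 markers of monocytes, macrophages and dendritic cells, of which 8 were tested, 4 above and 4 below 0, summed to 665.6 to 1393 CPM in controls and 738.7 to 1459 in mutants. Most of these sums came from Ly6c2, at a mean of 990 CPM in controls and 1132 in mutants. Adgre1, a macrophage surface receptor, averaged 40.1 CPM in controls and 27.8 in mutants (edgeR adjusted p = 0.176), with groups that did not overlap. Ly6c2 and Vcam1, of monocytes and macrophages, stood at 0.19 and 0.26, and Mrc1 had at most 3 counts in any mouse. The part of such cells in the Csf1r values was not tested. At its 3′ end Csf1r shares 873 bases with Hmgxb3, a gene on the opposite strand, and the strand setting of the counting is not given in the sources used here, so its counts could include reads from that gene.

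Among the alpha chains that pair with a common beta chain, Csf2ra and Il3ra had fold changes of opposite sign and intervals that both held 0. Csf2ra, which binds GM-CSF, ranged from 132.5 to 147.9 CPM in controls and from 100.5 to 138.7 in mutants, with mutant mouse 8 the lowest. Its log2 fold change was -0.11 (SE 0.11, interval -0.34 to 0.12; edgeR adjusted p = 0.769). Il3ra, which binds IL-3, ranged from 24.2 to 37.5 CPM in controls and from 30.3 to 52.1 in mutants, where mouse 8 was the highest. Its log2 fold change was 0.23 (SE 0.16, interval -0.13 to 0.58; edgeR adjusted p = 0.671). That value was 0.10 without control mouse 1 and also without mutant mouse 8, 0.01 with the log2 total count as a covariate, and -0.01 and 0.38 in the first and second technical libraries. Control mouse 1 was low for Il3ra, and the other 3 controls lay between 36.4 and 37.5 CPM.

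The log2 ratio of Il3ra to Csf2ra counts, which sets the alpha chains against each other within a mouse, was -2.04 ± 0.29 (SD, n = 4) in controls and -1.70 ± 0.47 (SD, n = 5) in mutants. The difference of 0.34 gave p = 0.278 when all 126 splits of the mice were enumerated (2-sided exact permutation test), and 0.417 after Benjamini-Hochberg adjustment over the 3 ratios tested. Mutant mouse 8 had the highest ratio, -0.95, and control mouse 1 the lowest, -2.45, with the other 7 mice between -2.19 and -1.62. The difference was 0.15 without mutant mouse 8, 0.20 without control mouse 1, and 0.10 and 0.49 in the first and second technical libraries. The smallest p that this design allows is 0.00794.

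Csf2rb, the beta chain shared by GM-CSF, IL-3 and IL-5, averaged 100.7 ± 12.99 CPM (SD, n = 4) in controls and 97.3 ± 5.50 (SD, n = 5) in mutants. Controls ranged from 81.9 to 110.3 CPM and mutants from 92.1 to 105.1, so that every mutant lay within the control range. The log2 fold change was -0.05 (SE 0.10), with an interval from -0.27 to 0.17 and an adjusted p of 0.891 in edgeR. Csf2rb2, its IL-3-specific copy, had 4.90, 5.76, 3.88 and 5.75 CPM in controls and 6.06, 8.51, 4.68, 6.74 and 7.35 in mutants. All mutants but mouse 8 were above the highest control. The log2 fold change was 0.39 (SE 0.19, interval -0.03 to 0.81; edgeR adjusted p = 0.537).

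As a share of the counts of both beta chain genes, Csf2rb2 took 4.55%, 4.96%, 4.53% and 5.05% in controls and 5.96%, 7.49%, 4.83%, 6.28% and 7.33% in mutants. Again mutant mouse 8 alone lay within the control range. Means were 4.77% ± 0.27 (SD, n = 4) and 6.38% ± 1.09 (SD, n = 5), a difference of 1.61 percentage points. The 2-sided exact permutation test gave p = 0.0317, and 0.0952 after adjustment over the 3 ratios, so the difference did not pass the threshold. In the first and second technical libraries alone it kept its sign, with unadjusted p = 0.230 and 0.119 in that test. The first library minus the second, in log2 CPM of Csf2rb2, was 1.17, 1.07, -1.69 and 0.23 in control mice 1 to 4. In mutants it ran from -0.17 to 0.76. The control SD of the share is thus that of summed libraries, which differed within control mice 1, 2 and 3. Mutant mouse 7, with the highest share, was the deepest, at 25485899 counts. Mutant mouse 8, nearly as deep at 24751227, had the lowest share of the mutants, 4.83%. Mutant mouse 12, the shallowest mutant at 15959029, had 7.33%. The estimated counts of both genes were not whole in any library, and which transcripts share their reads was not determined. The copies were 83.1% identical over the aligned part of the last 500 transcript bases. How any division of reads between them moved with depth was not tested.

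**Figure D3:**
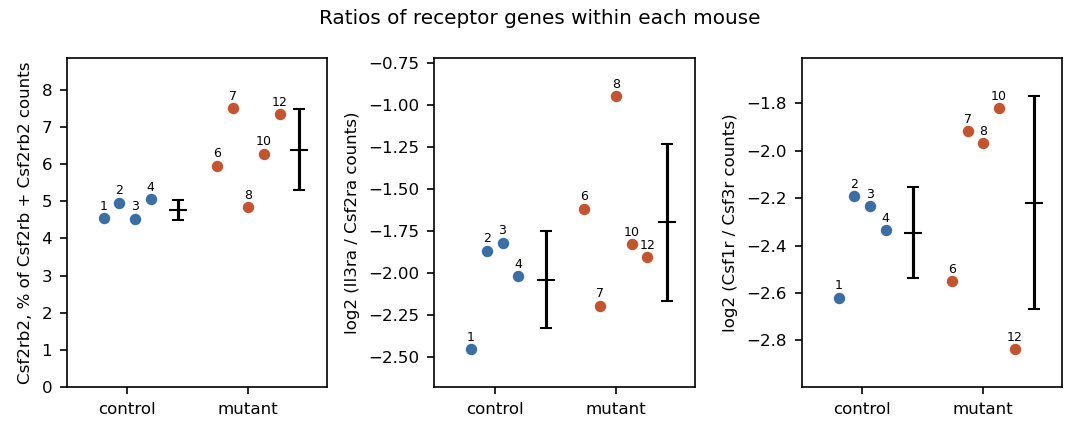
The 3 ratios between members in each mouse, blue for control and orange for mutant, with mouse numbers and the group mean and SD in black: the Csf2rb2 share of the counts of both beta chain genes in percent, and the log2 ratios of Il3ra to Csf2ra and of Csf1r to Csf3r counts. In the Csf2rb2 share, 4 of 5 mutants lie above every control, while in both log2 ratios the groups overlap.

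Csf3r, the G-CSF receptor of the neutrophil lineage, was the other member with separate groups, by a very small margin. Controls had 67.45, 89.5, 75.7 and 97.7 CPM, and mutants 65.2, 36.7, 61.3, 67.38 and 59.4. Control mouse 1 and mutant mouse 10 were thus nearly equal, and mutant mouse 7 was low, at 36.7 CPM. Group means were 82.6 ± 13.6 CPM (SD, n = 4) and 58.0 ± 12.3 (SD, n = 5), a log2 fold change of -0.51 (SE 0.17, interval -0.87 to -0.15) with an adjusted p of 0.345 in edgeR. Without mutant mouse 7 it was -0.38 (adjusted p = 0.409), with the log2 total count as a covariate -0.45 (adjusted p = 0.982), and with thinned totals -0.51 (adjusted p = 0.358). The first and second technical libraries gave -0.51 and -0.55, and the libraries of a mouse differed by a median of 0.15, the smallest such value among the members. Its estimated counts were not whole in any library, and which gene or transcript shares its reads was not determined, so its values carry that uncertainty.

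Markers of maturing neutrophils, which carry Csf3r, had a summed level of 475.0 to 1006 CPM in controls and 238.5 to 485.6 in mutants, so that the groups barely overlapped. Of the 11 tested, 6 were below 0 and 5 above. Fcnb, a granule lectin of early neutrophil stages, fell from 26.3 to 11.04 CPM (log2 fold change -1.26, edgeR adjusted p = 0.0368), and Camp, a granule antimicrobial peptide, averaged 386 and 139 CPM without passing the test (edgeR adjusted p = 0.115). Camp had the highest mean of the list in both groups, so it weighs most in the summed level. Ltf, which encodes the later granule protein lactoferrin, averaged 4.82 CPM in controls and 13.5 in mutants (edgeR adjusted p = 0.259). Their part in the Csf3r values was not tested.

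The log2 ratio of Csf1r to Csf3r counts, which sets the monocytic receptor against the neutrophilic one within a mouse, was -2.35 ± 0.19 (SD, n = 4) in controls and -2.22 ± 0.45 (SD, n = 5) in mutants. The difference of 0.13 gave p = 0.603 in the 2-sided exact permutation test, and 0.603 after adjustment. Mutants spread from -2.84 to -1.82 and held both the lowest and the highest mouse.

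Il6ra, the IL-6-binding chain, ranged from 13.3 to 23.5 CPM in controls and from 14.5 to 21.4 in mutants. Every mutant lay within the control range. Its log2 fold change was 0.03 (SE 0.17, interval -0.33 to 0.40; edgeR adjusted p = 0.961), a value whose sign changed with the technical libraries used and with the mice left out. Il6st, its signalling partner, averaged 0.76 CPM in controls and 0.97 in mutants, with overlapping groups.

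**Figure D4:**
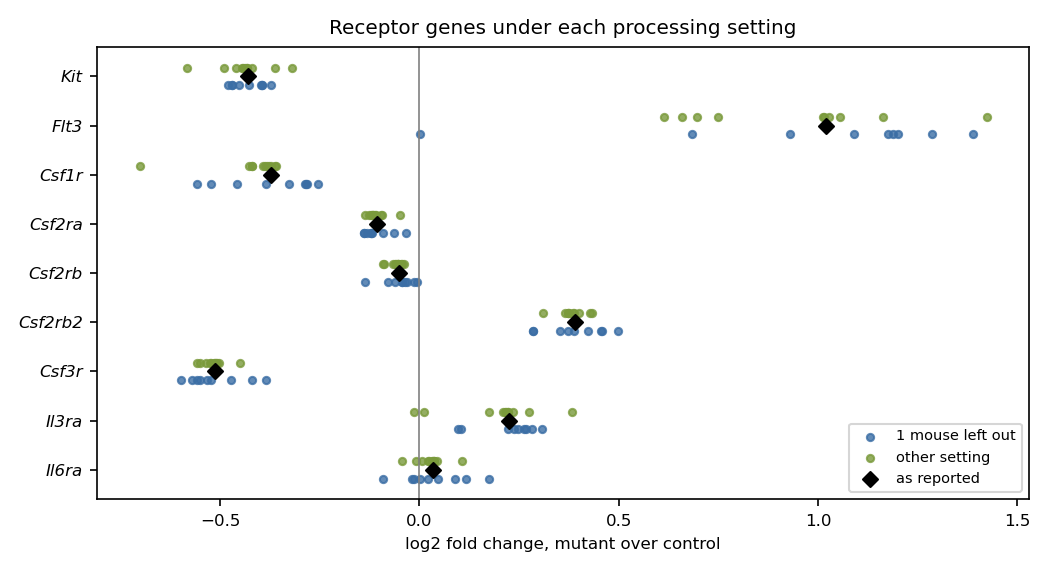
Log2 fold change of each receptor gene under the reported analysis and each alternative, with a grey line at 0, a black diamond for the reported value, blue dots for 1 mouse left out and green dots for other settings. Kit and Csf3r keep to the left of 0 under every setting, Flt3 spreads from 0.0011 without mutant mouse 6 to 1.42, and Il6ra and Il3ra cross 0.

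Beyond the receptors, 8 lists of genes around them were examined, and no gene of any list was called in edgeR. The lists were chosen with earlier results of these data known, so counts within them are a description only. Among 15 genes of ligands, 8 had no count in any mouse: Kitl, Il34, Csf2, Csf3, Il3, Il6, Thpo and Epo, and Il5 had at most 3. Of the 4 ligand genes tested none had an unadjusted p under the threshold, and their median log2 fold change was -0.10. Flt3l, the ligand of Flt3, averaged 13.3 CPM in controls and 13.2 in mutants, a log2 fold change of -0.01 (SE 0.17). Csf1 averaged 3.27 and 2.73 CPM and Osm, a cytokine of the IL-6 family, 3.997 and 3.504.

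Other cytokine receptor subunits numbered 33, of which 18 were tested, 9 above and 9 below 0, with a median of 0.00. At an unadjusted p under the threshold, 1 was higher and 3 lower, beside 9.85% of all tested genes in either direction and 4.89% lower. Il5ra, the alpha chain that pairs Csf2rb with IL-5, had 1.13 to 1.78 CPM in controls and 0.27 to 1.002 in mutants, without overlap, at a log2 fold change of -1.05 (SE 0.34; edgeR adjusted p = 0.345). Il2rg, the common gamma chain, averaged 37.1 and 47.1 CPM (log2 fold change 0.34), and Il10ra, an IL-10 receptor chain, 0.76 and 0.37 CPM, both with groups that overlapped. Thus of the 3 alpha chains that use Csf2rb, Il5ra and Csf2ra had values below 0 and Il3ra above.

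All 11 Janus kinase and STAT genes were tested, with 2 above and 9 below 0 and none at an unadjusted p under the threshold. The smallest p belonged to Jak3, the kinase of the gamma chain, at a log2 fold change of -0.23 (SE 0.13), followed by Stat6 at -0.14 and Tyk2 at -0.13. Of the 25 adaptors and kinases of the RAS-MAPK and SRC families and their partners, 16 were below 0. At an unadjusted p under the threshold 1 was lower, beside 4.89% of all tested genes. Pik3cd, a PI3-kinase catalytic subunit of blood cells, averaged 46.1 CPM in controls and 39.0 in mutants (log2 fold change -0.24), Plcg2, a phospholipase, 97.8 and 82.5, and Grb2, the adaptor that links Kit and Csf3r to RAS, 185.6 and 162.3. Their groups overlapped, and their adjusted p-values in edgeR were 0.403 to 0.509.

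Feedback inhibitors, phosphatases and ubiquitin ligases were represented by 30 genes, of which 27 were tested, 8 above and 19 below 0, with a median of -0.05. None had an unadjusted p under the threshold. Inpp5d, the lipid phosphatase SHIP1 that opposes Kit and beta chain signalling, averaged 68.2 CPM in controls and 62.1 in mutants (log2 fold change -0.13). Ptprj, a receptor phosphatase, stood at -0.69 (SE 0.41) and Nf1, a RAS inhibitor, at 0.41 (SE 0.27).

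Of 17 textbook target genes of STAT3 and STAT5, 15 were tested, 3 above and 12 below 0, with a median of -0.14. Id1, an inhibitor of differentiation, had 76.5 to 86.3 CPM in controls and 53.7 to 70.0 in mutants, without overlap, at a log2 fold change of -0.34 (SE 0.09; edgeR adjusted p = 0.259). Pim3, a survival kinase, had 30.6 to 33.6 and 25.9 to 29.9 CPM, also without overlap, at -0.21. These were the 2 targets of 15 with an unadjusted p under the threshold, beside 9.85% of all tested genes, and the 2 whose groups did not overlap, beside 4%. Bcl2l1, which encodes the survival protein BCL-XL, averaged 10.7 and 12.04 CPM.

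The 12 genes of receptor shedding and trafficking were all tested, 9 above and 3 below 0, with a median of 0.10. Adam17, the sheddase that releases Csf1r, Kit and Il6ra from the cell surface, had 30.3 to 32.8 CPM in controls and 25.6 to 30.1 in mutants, without overlap, at a log2 fold change of -0.17 (edgeR adjusted p = 0.533). Ctsg and Elane, neutrophil serine proteases that can cleave Csf3r, stood at 0.61 and 0.25, with overlapping groups. Ctsg was the gene of this list with an unadjusted p under the threshold, beside 9.85% of all tested genes in either direction. It ranged from 2277 to 3482 CPM in controls and from 2673 to 6450 in mutants.

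Transcription factors known to act on the receptor genes had 20 of 21 tested genes below 0, beside 48.3% of all tested genes, 6 of them at an unadjusted p under the threshold, beside 4.89% of all tested genes lower, and none higher at that threshold. Their median log2 fold change was -0.21, beside 0.01 for all tested genes, and no single gene passed the adjusted threshold. This list was chosen with earlier results of these data known. Its genes were also measured in the same mice and are not independent, so these counts are a description only. Gata2, a regulator of Kit in early progenitors and mast cells, had 24.82 to 40.6 CPM in controls and 14.8 to 24.49 in mutants, means of 32.4 ± 7.53 (SD, n = 4) and 18.7 ± 4.08 (SD, n = 5), and a log2 fold change of -0.80 (SE 0.18; edgeR adjusted p = 0.176). Its groups did not overlap, though the lowest control and the highest mutant were close. Cebpe, a factor of granulocyte maturation, averaged 195.1 and 146.4 CPM (log2 fold change -0.41, edgeR adjusted p = 0.303) and Etv6 141.9 and 119.0 (-0.25). Spi1, which encodes PU.1, averaged 163.2 and 141.2 CPM (-0.21), and Cebpa 30.8 and 27.5 (-0.17), both with overlapping groups and both named here after their values were seen, because their motifs were searched above. Gata2 is also one of the mast cell markers whose sums are given beside Kit.

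**Figure D5:**
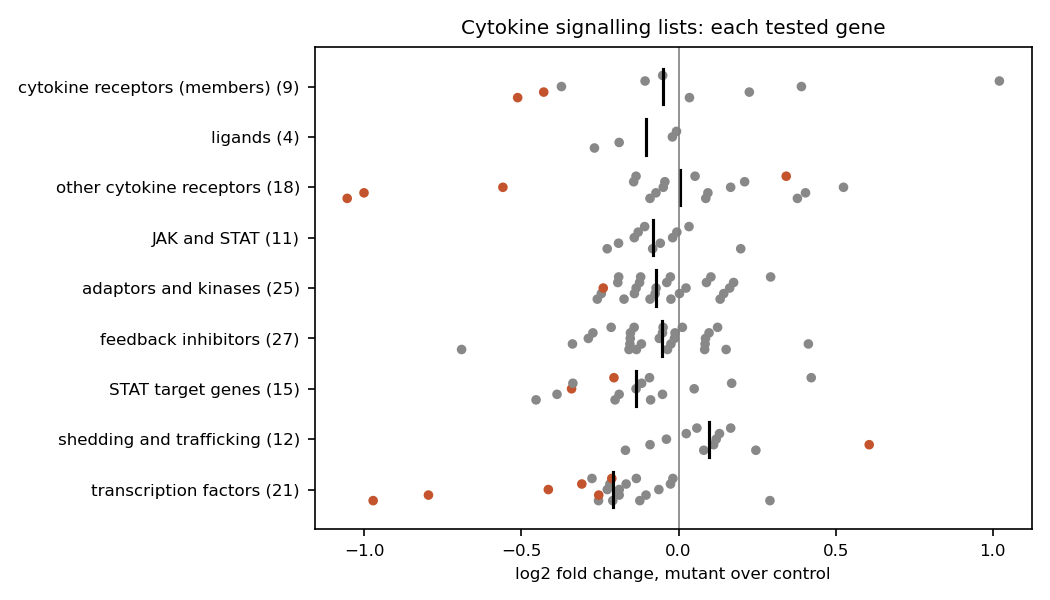
Log2 fold change, mutant over control, of each tested gene in the receptor list and the 8 lists around it, one row of dots per list, with a black line at the median and orange dots for genes at an unadjusted p under 0.05. The transcription factor row has 20 of its 21 dots below 0, and the receptor row 5 of 9. The lists were chosen with earlier results of these data known, so the rows are a description only.

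For each member whose mean reached 5 CPM, the genes most alike in their variation from mouse to mouse were found by Pearson's r of log2 CPM, centred within each group, over the 9 mice, among 8614 genes of at least that mean. All values share the same mice and libraries, and each r is the highest found, so they are a description only. Kit was most like Itpripl1 (r = 0.947), Csrp1 (0.940) and Fcnb (0.937), the granule lectin that fell in mutants. Csf3r was most like Cyth4 (0.952), Arhgef18 (0.948) and Zdhhc18 (0.948), and Csf1r like Lsm10 (0.991), Tmem223 (0.9746) and Cask (0.971). For the alpha chains these were Nus1, B3galt6 and Zfp277 with Csf2ra (0.953 to 0.934), and Ebna1bp2, Cabin1 and Fmnl3 with Il3ra (0.986 to 0.957). For the beta chains they were Wdr1, Atp6v1a and Matn2 with Csf2rb (0.965 to 0.958), and G6pdx, Memo1 and Laptm4a with Csf2rb2 (0.988 to 0.963), so the near-identical copies were not among each other's nearest. Il6ra was most like Inpp5j (0.970), Cln8 (0.938) and Batf (0.931). Flt3 lay under the mean required.

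On GRCm38 the members lie on 7 chromosomes. Kit (ENSMUSG00000005672) is at chr5:75574916-75656722 on the plus strand and Flt3 (ENSMUSG00000042817) on the same chromosome at chr5:147330741-147400489, minus strand. Csf3r (ENSMUSG00000028859) is at chr4:126024550-126044440, plus strand. Csf1r (ENSMUSG00000024621) is at chr18:61100598-61132149, plus strand. Csf2ra is at chr19:61223957-61228429, minus strand, Il3ra at chr14:14346275-14356011, plus strand, and Il6ra at chr3:89864059-89913196, minus strand. The beta chain genes are at chr15:78325752-78353847 (Csf2rb) and chr15:78282507-78305721 (Csf2rb2), and each contains a miRNA gene. Kit, Csf2ra and Csf3r overlap no other annotated gene, while Flt3, Il3ra and Il6ra each have an antisense gene that does not reach the 3′ end.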

How the data were processed

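The authors deposited estimated counts per gene for 18 libraries, 2 technical libraries for each of 9 mice, made from sorted cells by MARS-seq, per the labels' protocols. Salmon 1.3, bcl2fastq, FastQC and the build GRCm38 are named in the submitters' processing notes. Not given in the sources used here were the annotation, the strand setting and any use of molecular identifiers. Identifiers were matched on their first 18 characters to GENCODE mouse release 21 (54094 of 54347). The counts of a mouse's libraries were summed and rounded, filtered with filterByExpr (minimum count 10) and tested on all 9 mice in edgeR 4.0.16 (R 4.3.3) with TMM factors, the quasi-likelihood F-test and no covariate. A gene was called at a Benjamini-Hochberg adjusted p under 0.05 over 12973 tested genes. A standard error is the log2 coefficient over the square root of F. Levels in CPM use TMM factors for mice, and plain library totals for single libraries. 3 ratios between members were compared by exact permutation. The limit of 3 counts covers counting error only. Sequences were aligned with biopython 1.88.

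The members and the gene lists were chosen with earlier results of these data known. Named genes are the 9 members, the called genes or the 3 with the smallest p of each of 8 lists, the 3 genes most alike each member (0.5 CPM added before logs) without predicted genes, marker lists by their sums, and overlapping or near-identical genes. Alternatives were RLE and upper-quartile factors, DESeq2 1.42.0, limma 3.58.1 (voom on mouse sums, or on 18 libraries with a random effect for the mouse), no filter, a minimum mean of 10 CPM, each technical library alone, a covariate for the log2 total count, a threshold of 0.1, leaving out each mouse and, for ratios, 0.5 counts added. Thinning each mouse to the smallest total was added after the data had been seen. The labels call the mice separate, and mouse numbers are not shared between groups, so nothing was paired.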

Additional observations from a re-analysis of the deposited data

Results flagged for a closer look

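In 138 groups of 4 or 5 mice, the gap of the highest or lowest mouse to its neighbour was divided by the range of the group. Dixon's 95% limit was passed by 16 groups, where chance alone gives about 1 in 20 independent groups. These groups are not independent. Genes named for their likeness to a member were chosen to vary with it, so they can repeat its outlier. The count of 16 is therefore a description only and cannot be set against that rate. Among the receptors, Flt3 was high in mutant mouse 6 (9.69 CPM beside 0.42 to 2.55, ratio 0.770), and Csf3r was low in mutant mouse 7 (36.7 CPM beside 59.4 to 67.4, ratio 0.738). Csf2ra was high in control mouse 4 (147.9 CPM beside 132.5 to 132.9, ratio 0.974), and Il3ra was low in control mouse 1 (24.2 CPM beside 36.4 to 37.5, ratio 0.915). Mutant mouse 7 was also low for Jak3 (ratio 0.784) and Plcg2 (0.721), and for Cyth4 (0.714) and Zdhhc18 (0.774), which were named for their likeness to Csf3r. Control mouse 1 was low for Pik3cd (0.973), for Ebna1bp2 (0.916) and Fmnl3 (0.863), which were named for their likeness to Il3ra, and high for Grb2 (0.874). Control mouse 3 was low for Ptprj (0.859) and for Wdr1 (0.976), which was named for its likeness to Csf2rb. The summed maturing neutrophil markers were low in mutant mouse 8 (238.5 CPM beside 414.1 to 485.6, ratio 0.711), and the summed erythroid markers were high in control mouse 2 (62.3 CPM beside 16.8 to 20.98, ratio 0.908).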

How the results depend on the processing

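No receptor gene was called under any alternative that was run. The number of all genes called, 9, was 88 with DESeq2, 62 with limma-voom on the 18 libraries, 21 with no low-count filter, 3 in the second technical libraries, and 0 in the first, with a minimum mean of 10 CPM, and with the log2 total count as a covariate. Leaving out 1 mouse at a time gave 0 to 7 calls: 2 without control mouse 1, 4 without control mouse 2, 7 without mutant mouse 6 and 0 without any other mouse. Thinning, chosen after the data had been seen, gave 6. Kit, Csf3r, Csf1r, Csf2ra and Csf2rb stayed below 0 under each alternative, and Flt3 and Csf2rb2 above 0 under each in which they were tested, which leaves out the minimum mean of 10 CPM. Adjusted p-values ranged from 0.0508 to 0.982 for Kit and from 0.0753 to 0.982 for Csf3r, and leaving out each mouse moved Kit from -0.48 to -0.37 and Csf3r from -0.60 to -0.38. Csf1r ranged from -0.56 without mutant mouse 10 to -0.26 without mutant mouse 12, and was -0.70 with the covariate. Il3ra was -0.0134 in the first technical libraries. Il6ra was -0.0440 in those libraries and -0.00951 after thinning, and leaving out each mouse moved it from -0.0909 without control mouse 3 to 0.175 without control mouse 2, with -0.0192 without control mouse 1 and -0.0147 without mutant mouse 10. The 3 ratios kept their sign. With 1 mouse left out the exact test has little room to pass after adjustment, so its p-values there say nothing of stability. The cause of these changes was not tested. Depth limits Flt3 most, with 3 to 176 counts per mouse. No paired analysis was possible because the groups share no mouse number.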
